A study of Homo sapiens with 42 samples.

Results

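The messages of 9 genes were followed: the Janus kinases JAK1 and JAK2, the transcription factors STAT3, STAT5A and STAT5B, and the feedback inhibitors SOCS1, SOCS2, SOCS3 and CISH. They were chosen by gene name as the core of JAK-STAT signaling with its SOCS feedback, and they are 9 of the 57353 gene names in the counts. Each had a single row, and all 9 passed the filter on low counts. RNA-seq had been performed on 42 libraries, an input library (whole lysate) and a heavy polysome library from each of 21 cultures of the MOLM-13 cell line, which comes from an acute myeloid leukemia (AML). Heavy polysomes, in which a message carries 5 or more ribosomes, were collected from sucrose gradients after cycloheximide had been added to hold ribosomes in place. The data allow 2 questions about these genes: how the amount of each message changed with drug and medium, and whether its share in heavy polysomes moved apart from its amount.

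All cells carried FLT3-ITD, an internal tandem duplication that keeps the receptor tyrosine kinase FLT3 active, and all were treated for 12 h. In RPMI the conditions were vehicle, the FLT3 inhibitor quizartinib (AC220, 3 nM) and the combination of quizartinib with the mTORC1 inhibitor everolimus (10 nM), called combo. In hBMSC-CM, which was RPMI mixed with an equal part of medium taken from HS-5, a human bone marrow stromal line, there was also everolimus alone, beside the same 3 treatments. There were 7 conditions with 3 cultures each. The cultures are of 1 leukemia line, the conditioned medium holds what stromal cells secrete and no stromal cells, and everolimus alone was used in hBMSC-CM and not in RPMI.

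JAK kinases sit on the inner side of cytokine receptors. When a cytokine joins its receptor, they phosphorylate the receptor and the STAT proteins, which pair up, enter the nucleus and bind DNA. FLT3-ITD is known to phosphorylate STAT5 without a cytokine. Among the genes that STATs switch on are CISH, a classical STAT5 target, and SOCS3, a classical STAT3 target, and their proteins bind receptors or JAKs and damp the signal. The level of these feedback messages is therefore widely used as a readout of the pathway, although a message level is not a measurement of STAT phosphorylation.

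Total counts were 19.4 to 37.2 M per input library and 21.5 to 38.8 M per polysome library. Levels are counts scaled to the library total with TMM factors (CPM), and they are relative to the other messages of a library. In these bulk libraries a change in some of the cells and a smaller change in all of them cannot be told apart. The members had 61 to 7224 counts in input and 38 to 12970 in polysome libraries. Cultures with the same number deviated together across conditions, except those treated with everolimus alone, whose spread was also the smallest: the median coefficient of variation over the 9 messages was 4.10% there against 9.33% to 16.2% in the other 6 conditions. The labels do not say whether those cultures were handled together with the others, so in every comparison with everolimus alone the drug and such a difference cannot be told apart. Of 10 myeloid markers, 9 passed the filter on low counts, and CD68 did not. Of 10 stromal markers, COL3A1, LUM, THY1 and POSTN had no count in any of the 21 input libraries. The summed level of the stromal list in input was 0.909 to 4.34 CPM in RPMI vehicle, 9.66 to 41.5 CPM in RPMI quizartinib, 1.28 to 3.78 CPM in hBMSC-CM vehicle and 6.14 to 23.7 CPM in hBMSC-CM quizartinib, with COL1A1 making up 94.3% of it in RPMI quizartinib. This sum moved with quizartinib in both media and its part in the quizartinib results below was not tested, whereas it did not rise with the medium.

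Compared per kilobase of annotated exon, the levels of the 9 messages in RPMI vehicle input spanned more than 1 order of magnitude. The length joins all annotated exons of a gene, from 1788 bases for SOCS1 to 13174 for JAK1. Which transcripts were in use was not measured, so the order of the genes depends on these lengths. SOCS2 was the highest at 16.6 ± 2.5 CPM per kb (SD, n = 3 here and below), followed by CISH at 10.85 ± 0.749, STAT5A at 5.87 ± 0.469 and STAT3 at 5.70 ± 0.839 CPM per kb. JAK1 stood at 4.52 ± 0.178, STAT5B at 3.9 ± 0.364, SOCS1 at 1.94 ± 0.224, JAK2 at 1.72 ± 0.127 and SOCS3 at 1.09 ± 0.296 CPM per kb. The order was different under quizartinib in hBMSC-CM, where SOCS3 was the highest at 48.2 ± 7.43 CPM per kb, ahead of SOCS2 at 19.2 ± 3.05 and CISH at 15.4 ± 1.89 CPM per kb. SOCS3 thus moved from the last place to the first. STAT5A and STAT5B are near-identical neighbours whose reads could have been split between them, their exons overlap by 415 bases on opposite strands, and CISH and JAK1 share 218 and 10 bases with genes on the other strand. Whether counting used strand was not stated, so the levels of these genes hold that uncertainty.

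**Figure D1:**
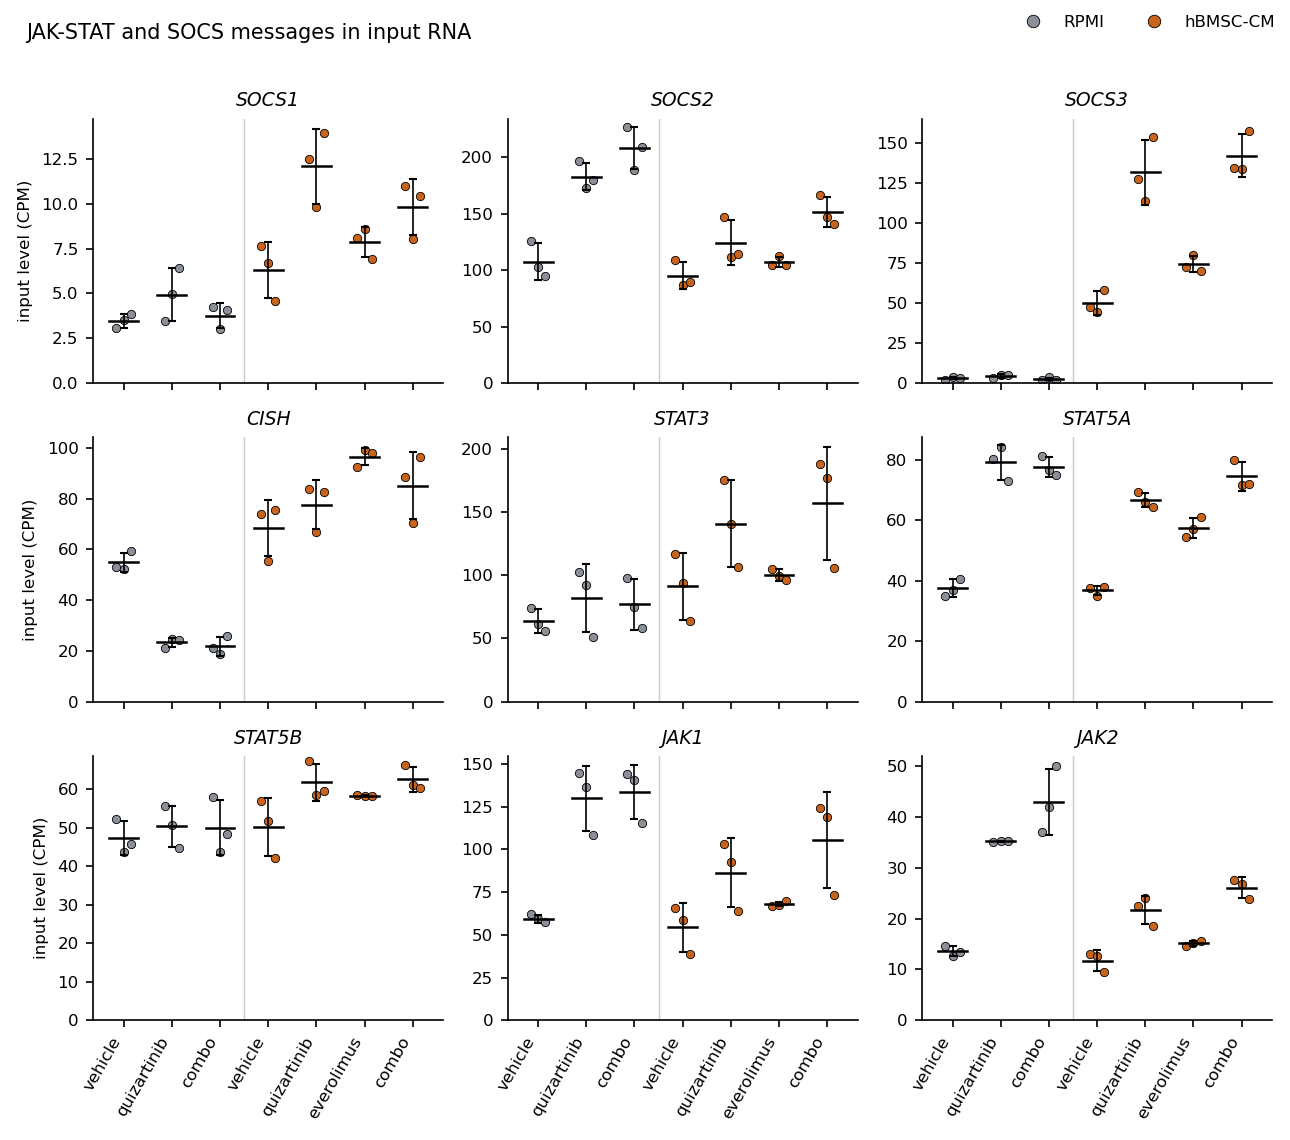
Input level of the 9 messages in each of the 21 cultures, in TMM-scaled CPM on axes that start at 0 (points: cultures; horizontal line: mean of 3; bar: SD; gray: RPMI; orange: hBMSC-CM). SOCS3 lies under 5 CPM in every RPMI culture and above 44 CPM in every hBMSC-CM culture, and CISH is lowest in the RPMI cultures with quizartinib or combo.

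CISH and SOCS3 are the feedback genes on which the results turn. The upstream sequence of CISH is shown because it holds several copies of the motif of the STAT family. The motif searched was TTCNNNGAA, the palindrome that STAT dimers favour, which reads the same on both strands. In the RefSeq promoter table (GRCh38.p14, 250 bases before to 50 after each start), the CISH promoter held 4 matches, beginning at -241 (TTCCTGGAA), -230 (TTCTTGGAA), -129 (TTCTAGGAA) and -112 (TTCCGGGAA) from the start. Of 35116 promoters of this length 7.66% held at least 1 match, and 7 promoters (0.0199%) held 4 or more. A match is a description of the letters and was not tested for binding. The 250 bases before the gene start are shown 5′ to 3′ on the gene's strand, with the motif matches in capitals (hg38, chr3:50611775-50612024, minus strand).
CISH: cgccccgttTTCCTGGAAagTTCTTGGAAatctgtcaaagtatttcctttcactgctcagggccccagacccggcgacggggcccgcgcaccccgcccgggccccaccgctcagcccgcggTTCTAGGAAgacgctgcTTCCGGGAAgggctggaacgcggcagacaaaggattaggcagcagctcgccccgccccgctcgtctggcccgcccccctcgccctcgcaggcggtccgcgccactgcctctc

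CISH, an SH2-domain inhibitor that competes for STAT5 docking sites on receptors, lies on chromosome 3 (50606489 to 50611774, minus strand). In RPMI input the 3 cultures held 53.15, 52.3 and 59.2 CPM under vehicle, 21.1, 24.6 and 24.1 CPM under quizartinib and 20.9, 18.55 and 25.7 CPM under combo. Every drug-treated culture in RPMI lay far below every vehicle culture. In hBMSC-CM the cultures held 74.1, 55.6 and 75.5 CPM under vehicle, 83.8, 66.7 and 82.6 CPM under quizartinib, 92.6, 99.1 and 98 CPM under everolimus, and 88.5, 70.5 and 96.3 CPM under combo. There no drug-treated culture fell below the lowest vehicle culture, and the quizartinib and vehicle values overlapped.

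Quizartinib lowered CISH 2.36-fold in RPMI, a log2 change of -1.24 (SE 0.16) with an adjusted p of 1.02e-07 in edgeR. In hBMSC-CM the log2 difference was 0.18 (SE 0.15, 95% interval -0.12 to 0.49, adjusted p 0.482). The difference between the media in this effect was itself tested, and it was 1.42 on the log2 scale (SE 0.22, adjusted p 0.000119). CISH was the 1 member called in that comparison, in which 1.96% of the 12939 genes passed. Between media, CISH was 3.34-fold higher in hBMSC-CM under quizartinib (log2 1.74, SE 0.16, adjusted p 1.19e-09) and 3.92-fold higher under combo (log2 1.97, SE 0.16, adjusted p 4.25e-11), while without drug it differed by 0.32 (SE 0.15, adjusted p 0.642) and the values overlapped.

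SOCS3, a SOCS protein that blocks JAK activity at receptors of the IL-6 and G-CSF kind, lies on chromosome 17 (78356778 to 78360077, minus strand). In RPMI input its cultures held 2.07, 3.62 and 3.25 CPM under vehicle, 2.99, 4.88 and 4.72 CPM under quizartinib and 1.92, 3.46 and 1.99 CPM under combo. In hBMSC-CM they held 47.4, 44.5 and 58.4 CPM under vehicle, 128, 114 and 154 CPM under quizartinib, 72.8, 80.1 and 70.25 CPM under everolimus, and 135, 134 and 158 CPM under combo. The 2 media did not overlap under any treatment, and within hBMSC-CM the order vehicle, everolimus, quizartinib had no overlap between neighbours, while quizartinib and combo overlapped.

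The medium raised SOCS3 16.8-fold without drug (log2 4.07, SE 0.26, adjusted p 4.09e-13), 31.4-fold under quizartinib (log2 4.97, SE 0.27, adjusted p 1.06e-15) and 57.5-fold under combo (log2 5.85, SE 0.29, adjusted p 5.27e-17). Without drug it was the 1 of 9 members called, where 1.51% of all genes passed. Quizartinib raised SOCS3 in hBMSC-CM by 1.40 on the log2 scale, or 2.63-fold (SE 0.23, adjusted p 0.000151). In RPMI the difference was 0.50 (SE 0.24, adjusted p 0.115), but it passed without RPMI quizartinib replicate 1 (0.69, adjusted p 0.0393). The difference between media in the quizartinib effect was 0.90 (SE 0.34, 95% interval 0.24 to 1.56) with an adjusted p of 0.242, so a difference between the media in this effect was not shown for SOCS3.

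SOCS1, which inhibits JAK kinase activity directly and is a classical interferon-induced gene, lies on chromosome 16 (11254417 to 11256204, minus strand) and was a low message. Its RPMI input cultures held 3.06, 3.5 and 3.86 CPM under vehicle and 3.43, 4.96 and 6.41 CPM under quizartinib. Those of hBMSC-CM held 7.65, 6.70 and 4.60 CPM under vehicle and 12.5, 9.82 and 13.95 CPM under quizartinib. Under quizartinib SOCS1 was 1.29 higher in hBMSC-CM on the log2 scale (SE 0.30, adjusted p 0.00314), and under combo 1.39 higher (SE 0.30, adjusted p 0.00210). Without drug the difference was 0.86 (SE 0.30, adjusted p 0.216), and it passed with the replicate block within each fraction (0.87, adjusted p 0.0360). The rise with quizartinib in hBMSC-CM was 0.94 (SE 0.29, adjusted p 0.0319). That call was lost without hBMSC-CM quizartinib replicate 1 (0.91, adjusted p 0.0849), without its replicate 3 (0.82, 0.102) and without hBMSC-CM vehicle replicate 3 (0.75, 0.177). In RPMI SOCS1 differed by 0.51 between quizartinib and vehicle (SE 0.30, adjusted p 0.194).

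SOCS2, best known as a brake on growth hormone signaling and also a STAT5 target, lies on chromosome 12 (93569814 to 93583487, plus strand). In RPMI it went the other way from CISH. Its RPMI input cultures held 126, 102 and 94.7 CPM under vehicle, 197, 173 and 179.6 CPM under quizartinib and 227, 189 and 209 CPM under combo, so that every drug-treated culture lay above every vehicle culture. Quizartinib raised it by 0.77 on the log2 scale (SE 0.20, adjusted p 0.00316). In hBMSC-CM the cultures held 109, 87.2 and 89.1 CPM under vehicle and 147, 111.5 and 114 CPM under quizartinib, a difference of 0.39 (SE 0.20, adjusted p 0.221) that passed with the block within each fraction (0.38, adjusted p 0.0363). Between media under quizartinib it was lower in hBMSC-CM by 0.56 without passing (log2 -0.56, SE 0.20, adjusted p 0.0908). With the replicate number as a block this passed (-0.56, adjusted p 0.0270), as it did without hBMSC-CM quizartinib replicate 1 (-0.70, adjusted p 0.0496). Under combo it was -0.46 (SE 0.20, adjusted p 0.285), and 0.0251 with the block within each fraction. SOCS2 overlaps the antisense gene SOCS2-AS1 by 277 bases and 2 pseudogenes are named after it, so part of its count may be theirs.

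STAT5A, 1 of the 2 STAT5 proteins, lies on chromosome 17 (42287547 to 42311943, plus strand). It rose with quizartinib in both media. The RPMI input cultures held 34.9, 36.9 and 40.75 CPM under vehicle and 80.2, 84.4 and 73.0 CPM under quizartinib. The hBMSC-CM cultures held 37.5, 35.1 and 37.9 CPM under vehicle, 69.4, 66.3 and 64.6 CPM under quizartinib and 54.6, 57.1 and 61.05 CPM under everolimus. None of these groups overlapped within a medium. The rise was 1.08 in RPMI (SE 0.18, adjusted p 9.6e-06) and 0.86 in hBMSC-CM (SE 0.18, adjusted p 0.00133) on the log2 scale, and the difference between media was -0.22 (SE 0.25, 95% interval -0.71 to 0.27, adjusted p 0.929). Without drug the media differed by -0.03 (95% interval -0.37 to 0.32). Under quizartinib they differed by -0.25 (SE 0.18, adjusted p 0.522), although the 3 cultures of each medium did not overlap.

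STAT5B (chromosome 17, 42199176 to 42288633, minus strand) is the close relative of STAT5A, and it was the steadiest of the 9 messages. Over all 21 input libraries it lay between 42.1 and 67.3 CPM, and it was called in none of the 10 input comparisons. The quizartinib difference was 0.09 in RPMI (SE 0.22, 95% interval -0.34 to 0.53) and 0.30 in hBMSC-CM (SE 0.22, 95% interval -0.14 to 0.73). STAT5A and STAT5B therefore differed in whether their change passed, but the difference between the 2 genes was not tested.

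STAT3 (chromosome 17, 42313324 to 42388540, minus strand) transmits signals of the IL-6 family. Its RPMI input cultures held 74.2, 61.6 and 55.8 CPM under vehicle and 102, 91.8 and 51.4 CPM under quizartinib. Those of hBMSC-CM held 116, 93.9 and 63.5 CPM under vehicle, 175.5, 141 and 106 CPM under quizartinib and 188, 177 and 105 CPM under combo. Much of this spread followed the culture number: culture 1 held the highest and culture 3 the lowest STAT3 in 7 of 7 conditions. STAT3 passed in 1 input comparison, hBMSC-CM against RPMI under combo (1.03, SE 0.29, adjusted p 0.0270). This call was lost without hBMSC-CM combo replicate 1 (0.89, adjusted p 0.112) or 2 (0.93, 0.122), without RPMI combo replicate 2 (1.01, 0.106) or 3 (0.87, 0.161), and without the everolimus cultures (0.99, 0.0584). With the replicate number as a block, 2 further comparisons among those without everolimus alone passed: quizartinib against vehicle in hBMSC-CM (0.64, adjusted p 0.00293, against 0.63 and 0.159 without the block) and hBMSC-CM against RPMI under quizartinib (0.80, adjusted p 0.000241, against 0.78 and 0.102). With the block within each fraction the medium without drug passed too (0.48, adjusted p 0.0447, against 0.51 and 0.821). In RPMI the quizartinib difference was 0.36 (SE 0.29, adjusted p 0.365).

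JAK1, the kinase shared by most cytokine receptors of the IL-6, IL-2 and interferon families, lies on chromosome 1 (64833223 to 65067754, minus strand). Its RPMI input cultures held 62.1, 59.0 and 57.5 CPM under vehicle, 145, 136 and 109 CPM under quizartinib and 144, 141 and 115 CPM under combo. Quizartinib raised it by 1.13 on the log2 scale (SE 0.25, adjusted p 0.000604), and no drug-treated culture overlapped vehicle. In hBMSC-CM the cultures held 66.0, 58.6 and 38.6 CPM under vehicle and 103, 92.4 and 63.8 CPM under quizartinib, which overlapped (0.67, SE 0.25, adjusted p 0.0737). This difference passed with the replicate block (0.67, adjusted p 0.0414), by DESeq2 (0.70, 0.0356) and without hBMSC-CM quizartinib replicate 3 (0.85, 0.0341). Culture 3 was the lowest for JAK1 in 6 of 7 conditions.

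JAK2, the kinase of the receptors for IL-3, GM-CSF and erythropoietin, lies on chromosome 9 (4984390 to 5129948, plus strand). Its RPMI input cultures held 14.7, 12.7 and 13.4 CPM under vehicle, 35.05, 35.2 and 35.3 CPM under quizartinib and 37.0, 42 and 49.98 CPM under combo. With a log2 change of 1.37, or 2.59-fold (SE 0.29, adjusted p 0.000306), it had the largest rise of the 9 members in RPMI. In hBMSC-CM the cultures held 13.0, 12.7 and 9.48 CPM under vehicle and 22.5, 24.0 and 18.6 CPM under quizartinib, without overlap, and the rise was 0.89 (SE 0.29, adjusted p 0.0391). That call was lost without any 1 of 5 cultures, with values of 0.75 to 0.97 and adjusted p of 0.0507 to 0.188. The 5 were replicates 1 and 2 of quizartinib and all 3 of vehicle. Tested for a difference between hBMSC-CM and RPMI, the quizartinib effect differed by -0.46 for JAK1 (SE 0.35, adjusted p 0.810) and -0.49 for JAK2 (SE 0.40, adjusted p 0.845), neither of which passed. Under quizartinib JAK1 and JAK2 were lower in hBMSC-CM by log2 values of -0.59 (adjusted p 0.177) and -0.70 (adjusted p 0.155), which passed with the block within each fraction (0.0129 and 0.0382). JAK2 was -0.72 under combo (adjusted p 0.188, and 0.0433 with that block).

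Counted together, quizartinib changed 5 of the 9 messages in RPMI input, with CISH lower and SOCS2, STAT5A, JAK1 and JAK2 higher, where 34.6% of all genes passed, 16.6% higher and 18% lower. In hBMSC-CM it changed 4, all of them higher (SOCS1, SOCS3, STAT5A and JAK2), where 12.3% of all genes passed and 5.46% were higher. That count was 2 without hBMSC-CM quizartinib replicate 1 and 2 without hBMSC-CM vehicle replicate 3. In the reported fit the medium changed 3 under quizartinib, all higher (SOCS1, SOCS3 and CISH), where 8.16% of genes passed. With the replicate block SOCS2, which was lower, and STAT3, which was higher, passed as well. With the block within each fraction JAK1 and JAK2, both lower, passed in addition to these. The values of the 2 media did not overlap for 9 of 9 members under quizartinib, as for 29.8% of all genes. Of these, SOCS2, STAT5A, JAK1 and JAK2 were lower in hBMSC-CM and the rest higher. Under combo the medium changed 4, SOCS1, SOCS3, CISH and STAT3, where 5.36% of genes passed. The 3 cultures of quizartinib and of vehicle did not overlap for 5 of the 9 in RPMI (55.7% of all genes) and for 6 in hBMSC-CM (34.1%), and the media did not overlap for 2 without drug (16.1%) and 7 under combo (21.5%). The median log2 change of the 9 messages was 0.51 with quizartinib in RPMI against 0.08 over all genes, and 0.67 against 0.01 in hBMSC-CM. These comparisons share control groups and are set side by side without a test of their overlap.

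**Figure D2:**
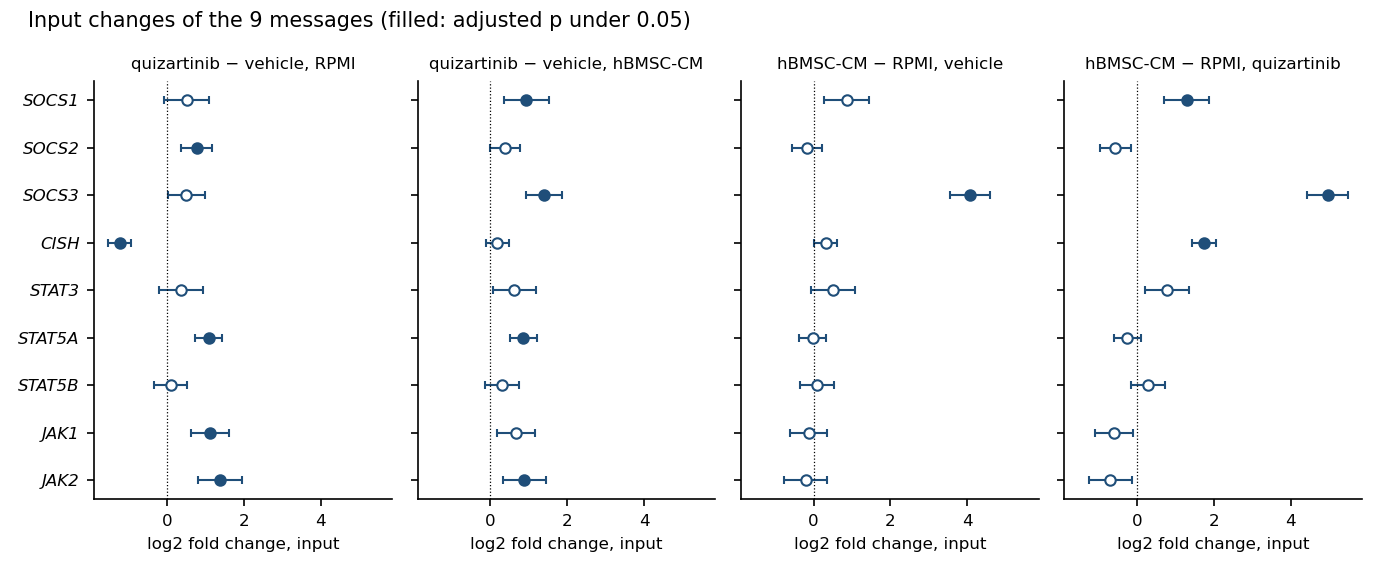
Log2 fold change in input of the 9 messages in 4 comparisons (points: estimate of the edgeR fit; bars: 95% interval; filled: adjusted p under 0.05 over 12939 genes; dotted line: no change). CISH is the 1 filled point left of the line with quizartinib in RPMI, and SOCS3 lies at 4.07 and 4.97 in the comparisons of the media.

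With everolimus added to quizartinib, no member had a difference that passed. The cultures of combo and quizartinib did not overlap for 1 of 9 members in hBMSC-CM, STAT5A (14.7% of all genes). The same held for 1 of 9 in RPMI, JAK2 (7.57%). In hBMSC-CM 0 of 9 members passed (edgeR; 0.24% of all genes passed), 0 had an unadjusted p under 0.05, and limma voom and DESeq2 called 0. The log2 differences ran from -0.30 for SOCS1 (95% interval -0.87 to 0.27) to 0.29 for JAK1 (-0.20 to 0.78). In RPMI 0 of 9 passed as well, with 0.00773% of genes called, and the same 2 tools called 0. SOCS3 there had an unadjusted p under 0.05, with a log2 difference of -0.77 (SE 0.25, adjusted p 1) and overlapping values. Everolimus alone in hBMSC-CM changed 0 of 9 by edgeR and limma voom and 1, STAT5A, by DESeq2 (0.41% of genes passed in edgeR). An unadjusted p under 0.05 was found for 3 members: STAT5A (0.64, SE 0.18, adjusted p 0.0924), SOCS3 (0.57, SE 0.23, adjusted p 0.401) and CISH (0.50, SE 0.15, adjusted p 0.169). All of these were higher with everolimus, in 3 of 3 cultures without overlap, which was so for 6 of the 9 members and 27.7% of all genes. Combo against everolimus in hBMSC-CM raised SOCS3 by 0.93 (SE 0.23, adjusted p 0.00597), the 1 of 9 members called where 11.1% of all genes passed, while the cultures did not overlap for 7 of 9 (45.9% of genes).

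In heavy polysomes the 9 messages differed widely. Polysome minus input is given as the difference of log2 CPM within a culture, called the polysome share below. Because CPM used TMM factors (1.06 to 1.25 in input, 0.705 to 1.04 in polysome libraries), 0 is not an equal share of reads. A positive value marks a message higher in heavy polysomes than in the lysate after this scaling. CISH was positive in every one of the 21 cultures. Its 3 cultures stood at 1.25, 1.32 and 1.24 in RPMI vehicle, at 1.54, 1.40 and 1.14 in RPMI quizartinib, at 1.04, 1.33 and 1.28 in hBMSC-CM vehicle and at 1.64, 1.69 and 1.54 in hBMSC-CM combo. Its condition means ran from 1.22 in hBMSC-CM vehicle to 1.62 in hBMSC-CM combo, which put it between the 85.3rd and the 94.1st percentile of the genes tested. SOCS3 was alike, with means from 0.79 ± 0.287 in RPMI quizartinib to 1.35 ± 0.271 in hBMSC-CM combo, and at the 72.6th to 94.2nd percentile. Its input level in these conditions was between 2.46 CPM (RPMI combo) and 142 CPM (hBMSC-CM combo), and the mean polysome share was positive at both ends.

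STAT5A had means from 0.73 ± 0.105 with everolimus to 1.59 ± 0.113 in RPMI combo, STAT3 from 0.48 ± 0.0666 with everolimus to 1.34 ± 0.173 in RPMI combo, and STAT5B from 0.11 ± 0.0967 to 1.03 ± 0.142 in the same 2 conditions. All 3 transcription factors were lowest in the everolimus cultures. SOCS1 stood near 0, with means of -0.11 to 0.25, and its cultures overlapped between polysome and input in 7 of 7 conditions.

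The kinases and SOCS2 lay on the other side. JAK2 was the lowest, with means from -2.57 ± 0.320 in hBMSC-CM combo to -1.78 ± 0.627 in RPMI quizartinib, at the 3.55th to 8.40th percentile of all genes. Its 3 cultures stood at -2.83, -1.93 and -2.57 in RPMI vehicle and at -1.95, -2.84 and -1.82 in hBMSC-CM vehicle. JAK1 had means from -1.58 ± 0.205 in RPMI vehicle to -0.59 ± 0.558 in RPMI combo, and SOCS2 from -0.98 ± 0.410 in hBMSC-CM vehicle to -0.48 ± 0.256 in hBMSC-CM quizartinib.

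**Figure D3:**
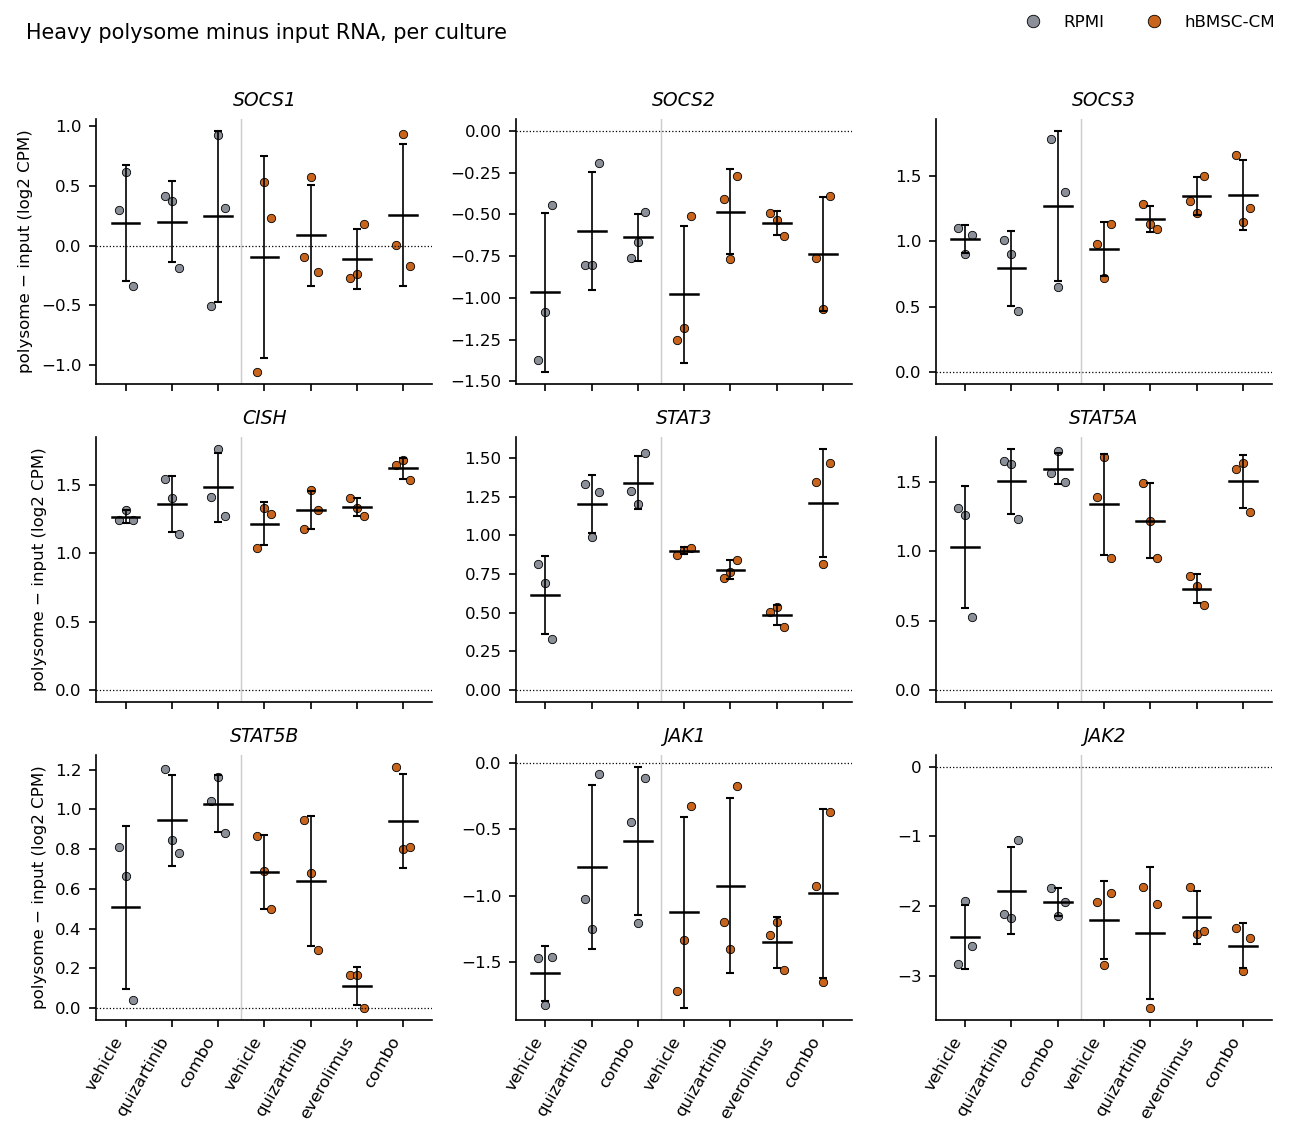
Heavy polysome minus input level, as a difference of log2 CPM (prior count 2), in each of the 21 cultures (points: cultures; horizontal line: mean of 3; bar: SD; gray: RPMI; orange: hBMSC-CM; dotted line: equal TMM-scaled level). CISH, SOCS3 and the 3 STAT messages lie above or at the line, JAK1, JAK2 and SOCS2 below it, and SOCS1 around it in every condition.

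The difference between fractions was tested within each condition. It passed for 7 of 9 members in RPMI vehicle (65.4% of all genes passed), 8 in RPMI quizartinib (57.9%), 7 in RPMI combo (59.3%), 8 in hBMSC-CM vehicle (63.6%), 8 in hBMSC-CM quizartinib (58.7%; 5 without its replicate 1 or its replicate 2), 6 with everolimus (58.6%) and 8 in hBMSC-CM combo (63%). CISH, SOCS3 and STAT5A were higher and JAK2 and SOCS2 lower in polysomes in 7 of 7 conditions. JAK1 was lower in 6 and had a log2 difference of -0.55 (SE 0.25, adjusted p 0.0573) in RPMI combo. In that condition it passed by limma voom (-0.59, adjusted p 0.0360) and DESeq2 (-0.58, 0.0350). It also passed with library size only (-0.80, adjusted p 0.0183) and with the replicate block (-0.56, 0.0372). STAT3 was higher in 5 and stood at 0.65 (adjusted p 0.0504) in RPMI vehicle, where it passed with a term for each culture (0.61, adjusted p 0.00142). With everolimus STAT3 stood at 0.49 (adjusted p 0.147), where it too passed with a term for each culture (0.48, adjusted p 0.00876), and STAT5B at 0.11 (adjusted p 0.677). SOCS1 passed in none.

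Each culture was also left out in turn. The calls of CISH, SOCS3, STAT5A and JAK2 between fractions held every time, while some of the others rested on single cultures. SOCS2 lost its call in RPMI quizartinib without replicate 1 (-0.46, adjusted p 0.139) or 2 (-0.48, 0.115), in RPMI combo without replicate 1 (-0.57, 0.0620), in hBMSC-CM quizartinib without any 1 of its cultures (-0.55 to -0.35, adjusted p 0.0599 to 0.237) and with everolimus without any 1 of its cultures (-0.61 to -0.51, adjusted p 0.0516 to 0.101). JAK1 lost it in RPMI quizartinib without replicate 1 (-0.62, adjusted p 0.109) or 2 (-0.55, 0.146), and in hBMSC-CM quizartinib and combo without replicate 2 (-0.72, 0.0575, and -0.70, 0.0511), and it gained it in RPMI combo without replicate 3 (-0.89, 0.0174). STAT3 lost it in hBMSC-CM quizartinib without any 1 of its cultures (0.74 to 0.80, adjusted p 0.0624 to 0.0884). STAT5B lost it in RPMI vehicle without replicate 1 (0.38, 0.220) or 2 (0.50, 0.127), in hBMSC-CM vehicle without replicate 1 (0.61, 0.0555) and in hBMSC-CM quizartinib without replicate 1 (0.50, 0.116). Scaling decided some of these calls. With library size only, the values of the members called moved by a median of -0.55 to -0.28 on the log2 scale, depending on the condition: SOCS3 in RPMI vehicle fell to 0.47 (adjusted p 0.130), STAT3 in hBMSC-CM vehicle to 0.35 (0.263), and STAT5B in RPMI vehicle changed sign (-0.02, adjusted p 0.934).

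The share in heavy polysomes was then compared between conditions, as the change in polysome RNA minus the change in input RNA. In none of the 10 comparisons did a member pass (edgeR), and limma voom and DESeq2 called 0 members in each. For quizartinib in RPMI 1.55% of all genes passed, and in the other 9 comparisons 0 genes did (93 to 875 genes had an unadjusted p under 0.05, and DESeq2 called 0 to 13 genes). An unadjusted p under 0.05 was found for 3 members, STAT5A in 2 comparisons and JAK1 and STAT5B in 1 each. JAK1 was at 0.82 with quizartinib in RPMI (SE 0.36, adjusted p 0.249), and it passed with the block within each fraction (0.82, adjusted p 0.0299). STAT5A was at -0.63 with everolimus against vehicle (SE 0.25, adjusted p 1), and STAT5A and STAT5B were at 0.79 (SE 0.25, adjusted p 0.487) and 0.85 (SE 0.31, adjusted p 0.539) with combo against everolimus. With the block within each fraction, combo against everolimus passed for STAT5A (0.76, adjusted p 0.00932), STAT5B (0.82, 0.00833) and STAT3 (0.73, 0.0352). Over all genes 440 passed there, and the replicate numbers did not pair the everolimus cultures. For everolimus against vehicle the cultures of 4 members did not overlap, as for 18.1% of genes.

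For CISH the quizartinib difference in polysome share was 0.10 in RPMI (SE 0.22, 95% interval -0.33 to 0.52) and 0.10 in hBMSC-CM (SE 0.22, 95% interval -0.33 to 0.52), and the difference between media was 0.00 (95% interval -0.64 to 0.65). For SOCS3 the medium difference in polysome share was -0.05 without drug (95% interval -0.70 to 0.59) and 0.38 under quizartinib (95% interval -0.27 to 1.03), beside input differences of 4.07 and 4.97. These intervals are not adjusted for the number of genes tested. With 3 cultures per condition, the data are compatible with a difference in share of any size inside them.

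Other genes of the pathway were counted by lists written from general knowledge. Earlier results of these data were known when the lists were chosen, so the counts are descriptions. FLT3 and PTPRC in these lists are also among the 10 myeloid markers. Of 17 STAT5 and STAT3 targets 16 were tested. With quizartinib in RPMI 2 of them rose and 8 fell (all genes: 16.6% higher, 18% lower), with a list median of -0.72. The largest fall was in MYC, the growth-promoting transcription factor, from 490.3 ± 75.1 to 42.7 ± 11.8 CPM (log2 -3.52, adjusted p 1.85e-10), and the largest rise in BCL3, an atypical I-kappa-B protein, from 5.26 ± 2.28 to 49.1 ± 17.6 CPM (3.23, adjusted p 1.87e-09). In hBMSC-CM 3 rose and 2 fell with quizartinib (all genes: 5.46% higher, 6.84% lower), with a median of 0.23. BCL6, a transcriptional repressor, rose from 5.03 ± 2.82 to 18.8 ± 4.46 CPM (1.90, adjusted p 0.000444), and CCND2, a D-type cyclin, fell from 62.5 ± 5.74 to 39.1 ± 2.21 CPM (-0.68, adjusted p 0.00525). Under quizartinib 13 of the 16 were higher in hBMSC-CM than in RPMI and 1 was lower, with a median of 1.5, where 6.11% of all genes were higher and 2.05% lower. PIM1, a survival kinase, led at 232 ± 39.75 against 6.0 ± 0.531 CPM (5.27, adjusted p 2.87e-16), and BCL2, an inhibitor of apoptosis, was lower at 29.9 ± 3.53 against 58.1 ± 4.53 CPM (-0.96, adjusted p 7.57e-05). Without drug 6 were higher and 1 lower in hBMSC-CM (all genes: 1.3% higher, 0.209% lower), with BCL3 at 87.0 ± 29.4 against 5.26 ± 2.28 CPM (4.05, adjusted p 2.89e-10) and BCL2 at 47.5 ± 4.57 against 82.9 ± 8.37 CPM (-0.80, adjusted p 0.00305).

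Among cytokine receptors, 18 of 25 were tested. Quizartinib raised 7 and lowered 0 in RPMI (all genes: 16.6% higher, 18% lower), led by CSF1R, the receptor of macrophage colony-stimulating factor, from 15.9 ± 5.62 to 129 ± 22.8 CPM (3.03, adjusted p 5.71e-10). In hBMSC-CM it raised 6 and lowered 0 (all genes: 5.46% higher, 6.84% lower), led by IL10RA, the ligand-binding chain of the IL-10 receptor, from 19.6 ± 7.32 to 72.1 ± 2.27 CPM (1.88, adjusted p 0.000668). In hBMSC-CM against RPMI 4 were higher and 2 lower without drug (all genes: 1.3% higher, 0.209% lower), and 4 higher and 3 lower under quizartinib (all genes: 6.11% higher, 2.05% lower). IL7R, a chain of the IL-7 receptor, was the furthest up, with 7.53 ± 0.918 against 0.650 ± 0.255 CPM without drug (3.54, adjusted p 0.00098), and FLT3 itself the furthest down, with 46.6 ± 17.2 against 118 ± 26.7 CPM (-1.34, adjusted p 0.00219). Under quizartinib IL7R stood at 11.2 ± 0.965 against 0.264 ± 0.0951 CPM (5.38, adjusted p 1.55e-06) and FLT3 at 53.05 ± 17.8 against 245 ± 68.5 CPM (-2.21, adjusted p 3.06e-07). None of the 11 cytokine ligands of the list passed the filter on low counts.

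STAT2, a transcription factor of type I interferon signaling, also rose with quizartinib, from 43.2 ± 10.5 to 161 ± 26.4 CPM in RPMI (1.90, adjusted p 3.16e-07) and from 60.6 ± 20.5 to 150.4 ± 13.4 CPM in hBMSC-CM (1.31, adjusted p 0.000641). JAK3, the kinase that pairs with the common gamma chain, was higher in hBMSC-CM than in RPMI, at 30.9 ± 2.40 against 8.35 ± 1.28 CPM without drug (1.89, adjusted p 1.16e-05) and 67.3 ± 8.64 against 16.6 ± 0.336 CPM under quizartinib (2.02, adjusted p 7.91e-07). The other SOCS messages, SOCS4 to SOCS7, passed in 0 of these 4 comparisons. Of all genes 34.6% passed with quizartinib in RPMI, 12.3% with it in hBMSC-CM, 1.51% for the medium without drug and 8.16% under quizartinib. A contrast between these SOCS messages and the members was not tested.

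Among 11 other brakes on the pathway, quizartinib in RPMI raised 5 (16.6% of all genes were higher and 18% lower), led by the ubiquitin ligase CBLB from 8.79 ± 0.786 to 31.15 ± 3.96 CPM (1.82, adjusted p 5.45e-06), and lowered 1, the phosphatase PTPN6 (SHP-1), from 308 ± 28.1 to 159 ± 17.0 CPM (-0.96, adjusted p 0.00197). In hBMSC-CM, where 5.46% of all genes were higher, it raised CBLB alone among the 11, from 9.64 ± 2.56 to 28.95 ± 7.62 CPM (1.59, adjusted p 0.000395). PTPN6 was the 1 brake higher in hBMSC-CM under quizartinib (6.11% of all genes were higher), at 273 ± 42.2 against 159 ± 17.0 CPM (0.78, adjusted p 0.0356), and 0 of 11 passed without drug.

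**Figure D4:**
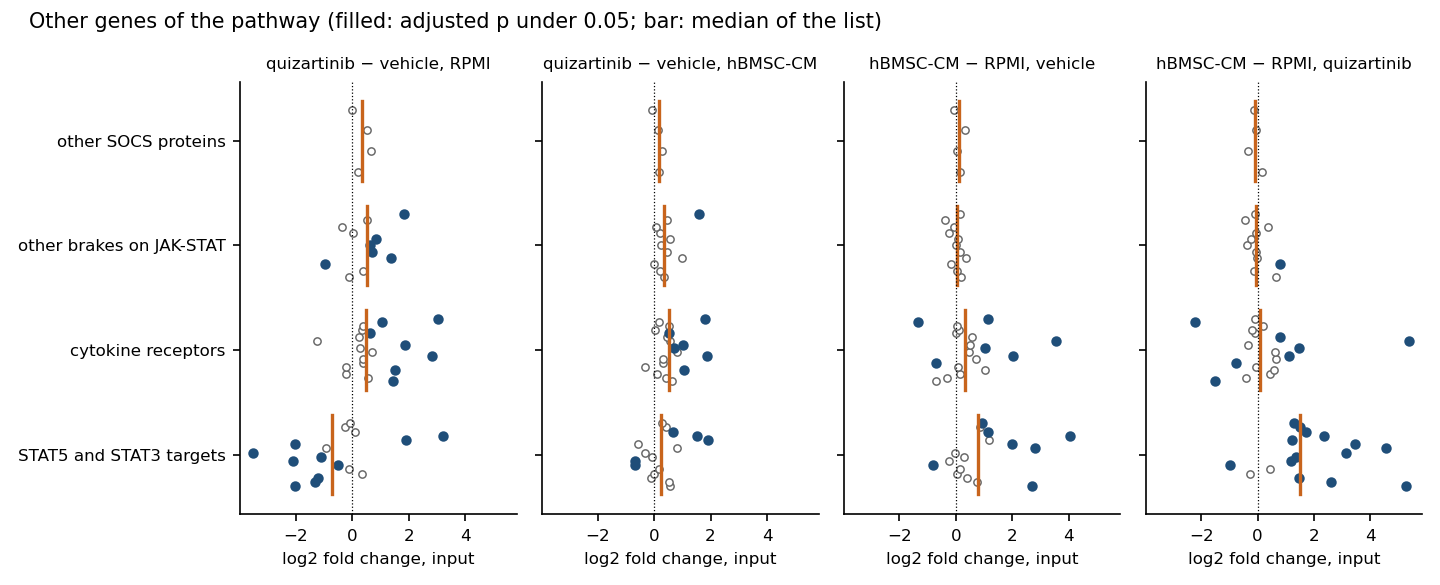
Log2 fold change in input of the other pathway genes, by list, in 4 comparisons (points: genes tested; filled: edgeR adjusted p under 0.05; orange bar: list median; dotted line: no change). The STAT5 and STAT3 targets have a median of -0.72 with quizartinib in RPMI and of 1.5 for hBMSC-CM against RPMI under quizartinib, and the other SOCS genes have no filled point.

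The messages whose input level was most like each member's were found by the Pearson correlation of log2 CPM over the 21 input libraries, which share conditions and culture numbers, so the values are descriptions. SOCS3 was most like FPR1 (r = 0.984), CD99L2 (0.979) and GLIPR2 (0.976), and CISH most like HRH2 (0.970), IER3 (0.967) and ARRB2 (0.967). SOCS1 was most like LRG1 (0.925), PIK3R6 (0.918) and SERINC2 (0.912). SOCS2 and JAK2 shared ATF7IP among their nearest genes (0.966 and 0.963), beside ZNF436 and RCAN3 for SOCS2 and RCSD1 and REEP3 for JAK2. JAK1 was most like NCAM2 (0.983), CREBBP (0.982) and PNRC1 (0.981), and STAT5A most like PLEKHM1 (0.976), CARD6 (0.972) and MAU2 (0.971). STAT3 was most like LYN (0.951), LPCAT3 (0.945) and CD53 (0.942), and STAT5B most like LRP5 (0.913), GRINA (0.910) and STAT3 (0.894), which makes STAT3 and STAT5B the 1 pair of members in which a member was among the 3 nearest of another.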

How the data were processed

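From 21 MOLM-13 cultures, 3 for each of 7 conditions, whole-lysate (input) RNA and RNA from heavy polysomes had been sequenced as paired-end poly(A) libraries. The authors trimmed reads with BBDuk, aligned them with STAR 2.6.0a to hg38 and deposited raw counts per gene. Whether counting used strand is not given in the sources used here. Of 58884 rows, those sharing a name were summed and genes with a mean count and mean CPM of at least 1 were kept (12939 genes, 99.8% of counts).

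One fit of edgeR 4.0.16 (quasi-likelihood, robust, TMM, R 4.3.3) on all 42 libraries with 14 group means gave every comparison. Polysome comparisons were interactions with the fraction. The Benjamini-Hochberg adjusted p was called under 0.05. Levels are CPM, and log2 CPM has a prior count of 2. Alternatives were limma 3.58.1 (voom), DESeq2 1.42.0, other scaling and filters, replicate blocks, fewer libraries and leaving out each culture.

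Same-numbered cultures deviated together in the 7 comparisons without everolimus alone (r of 0.331 to 0.658 in input and 0.156 to 0.715 in polysomes), so the numbers pair those samples. Between the input and polysome libraries of the same culture number r was -0.0438 to 0.303. The reported fit has no block and no term for each culture. Values with the replicate number as a block stand beside the results whose call it changes or in the closing section on processing. The labels number the replicates without saying whether they are separate cultures. They are called cultures throughout, and the p-values measure the spread between these samples. The smallest chi-square per degree of freedom between replicates was 4.78, and no library was a duplicate. That value came from the input of everolimus alone, whose pairs stood at 4.78 to 6.90. Input pairs of the other conditions stood at 26.1 to 185, so the everolimus samples were more alike than other replicates. Members and lists were chosen with earlier results of these data known. All 9 members were named, together with the called gene of largest rise and of largest fall in each list in 4 comparisons, and the 3 genes most like each member among those with a mean of at least 10 CPM in input. Some genes and sequences are not reported here.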

Additional observations from a re-analysis of the deposited data

Results flagged for a closer look

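The CISH message was picked out because its response to quizartinib differed between the media in a direct test of the difference. The difference was 1.42 on the log2 scale in input RNA (SE 0.22, edgeR adjusted p 0.000119), and it held under every alternative tried. Quizartinib gave -1.24 in RPMI, with 3 of 3 cultures below every vehicle culture, and 0.18 in hBMSC-CM, with overlapping values.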

How the results depend on the processing

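Of 19 calls of single members in input, 16 held in every setting tried, and of 52 calls of polysome against input, 37 did. The number of members called changed by more than 1.5 times as follows. For quizartinib in hBMSC-CM input (4 called) it was 2 with no filter, 2 with only the libraries compared, 7 with the replicate block within each fraction, and 2 to 4 when 1 culture was left out. For the medium in input it went from 1 to 3 without drug with the block within each fraction, and from 3 to 5 under quizartinib with the replicate block and 7 with the block within each fraction. For everolimus against vehicle in input (0 called) it was 1 by DESeq2, 1 with library size only, 1 with a filter of 10 CPM and 2 with either block. For combo against everolimus in input (1 called) it was 2 by limma voom, 3 by DESeq2, 3 with only the libraries compared, 4 with the replicate block and 6 with the block within each fraction. For polysome relative to input, the block within each fraction called 1 member for quizartinib in RPMI and 3 for combo against everolimus, against 0. For polysome against input, library size only called 5 of 9 in hBMSC-CM vehicle, against 8, and leaving out 1 culture called 5 to 6 in hBMSC-CM quizartinib, against 8. STAT5B in RPMI vehicle reversed with library size only (-0.0206, adjusted p 0.934). The cause was not tested.

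The replicate numbers did not pair the everolimus cultures (r of -0.0535 to -0.000365 in input), and there the replicate block called CISH (0.51, adjusted p 0.0429) and STAT5A (0.65, 0.0168) against vehicle, and SOCS2 (0.49, 0.0439), STAT3 (0.59, 0.00523) and JAK2 (0.78, 0.0399) for combo. For polysome against input it also called JAK1 in RPMI combo (-0.56, 0.0372), STAT3 with everolimus (0.48, 0.00663) and STAT3 in RPMI vehicle (0.61, 0.000705). Over all genes, the number called in input changed by more than 1.5 times in these comparisons. Across those alternatives it was 83 to 585 for the medium without drug (195 as reported), 501 to 2275 for the medium under quizartinib (1056), 1372 for the medium under combo (693), 137 to 876 for the difference between media (254), 370 to 3803 for quizartinib in hBMSC-CM (1591), 9 to 675 for everolimus (53), 805 to 3290 for combo against everolimus (1437), 0 to 380 for combo against quizartinib in hBMSC-CM (31) and 0 to 14 in RPMI (1). For polysome relative to input it was 93 to 1513 for quizartinib in RPMI (201) and at most 440 elsewhere (0). The alternative without the everolimus cultures was chosen after seeing the data, and it ended the calls of SOCS1 with quizartinib in hBMSC-CM (adjusted p 0.0533) and of STAT3 for the medium under combo in input, and of SOCS2 for polysome against input in hBMSC-CM quizartinib (-0.43, adjusted p 0.0893), while STAT3 passed in RPMI vehicle (0.77, 0.0282). With 3 cultures per condition and a biological coefficient of variation of 0.279, small differences in polysome share could not be detected.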
